A study of Sus scrofa with 14 samples.

Results

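The genes described here encode the nuclear subunits of the mitochondrial respiratory chain and of ATP synthase, measured in the endometrium of pseudopregnant pigs. Members were the genes whose single symbol in the annotation of the array starts with NDUF, UQCR, SDHA to SDHD, COX4 to COX8 or ATP5, or is CYC1 or CYCS. The rule found 65 of the 6765 genes named by a single symbol: 33 of complex I, 4 of complex II, 2 of complex III, 7 of complex IV, 14 of complex V, cytochrome c (CYCS) and 4 assembly factors. Where a gene had several probe sets, the brightest on average was used. Of the 65 genes, 64 passed the filter on dim probe sets, and COX8H, the heart form of subunit VIII of complex IV, did not. The label speaks of subunits, but NDUFAF1, NDUFAF2, NDUFAF3 and SDHAF2 are assembly factors that are absent from the finished complexes, and they were kept apart. NDUFA4, named as a complex I subunit, has since been placed with complex IV, and was counted under its name.

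Uteri came from crossbred cyclic gilts, 8 to 10 months old, all of them pseudopregnant. Gilts received estrogen or corn oil when the second estrus after a normal cycle began, and once more a day later, and the estrogen product and its dose are not given in the labels. Endometrium was collected at day 13 or day 15 of pseudopregnancy after the uterus had been flushed with saline, and 1 Affymetrix porcine array was hybridised per sample. The 4 groups were corn oil (control) at day 13 with 4 arrays, control at day 15 with 3, estrogen at day 13 with 4 and estrogen at day 15 with 3. Days 13 to 15 span the time when the conceptus attaches in a pregnant pig, and the design asks how early estrogen alters the endometrium at this time. The labels call the arrays biological replicates and name no animals.

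Electrons from NADH enter the chain at complex I (NADH dehydrogenase) and those from succinate at complex II, then pass through complex III, cytochrome c and complex IV to oxygen. Complexes I, III and IV pump protons out of the mitochondrial matrix, and complex V, ATP synthase, makes ATP as the protons return. Most subunits are encoded in the nucleus, and a core of them in mitochondrial DNA. The mitochondrially encoded subunits were not analysed here. In the endometrium, glands and surface epithelium secrete the nutrients that feed the early conceptus, which is work that needs ATP.

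Signals were analysed as log2(signal + 16), so a difference of 1 on this scale is 2-fold, and a level is compared here only with the level of the same probe set on other arrays. Median correlation of an array with the others lay between 0.93 and 0.95 for 11 arrays. The remaining 3, estrogen day 15 replicate 2 and, among the controls, replicate 1 of day 13 and replicate 3 of day 15, lay at 0.86 to 0.88, and the differences of the genes that read lowest or highest on them are given with and without them. Median signal per array ranged from 178.0 to 217.6. Epithelial markers such as EPCAM and KRT8 (8 of 8 on the array) and stromal markers (7 of 7) passed the filter, while all 4 striated muscle markers on the array did not. Of the 4 trophoblast markers on the array GATA2 and GATA3 passed it and TFAP2C and IFNG did not. The mean level over all 4 ranged from 5.98 to 7.22 over the arrays. The markers NDUFA9, NDUFS1 and NDUFAB1, which stand for the respiratory chain, passed it and lay at 9.48 or above on every array.

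No member passed the threshold in any of the 7 comparisons. Each comparison was made with limma on 16754 probe sets with Benjamini-Hochberg adjustment at 0.05, and the share of all probe sets called was 0% in 6 of the 7 and 0.00597% (1 probe set) for day 15 against day 13 averaged over both treatments. The lowest of the 4 group means was that of control gilts at day 13 for 43 of 64 members, against 18.7% of all probe sets. Against that group, 52 of 64 members had a positive fitted difference in control gilts at day 15 and 51 of 64 in estrogen gilts at day 13. Those 2 comparisons share the control day 13 arrays. The median member difference (log2) was 0.23 for day 15 against day 13 in control gilts, where the median over all probe sets was -0.02, and 0.13 for estrogen against control at day 13, where it was -0.02.

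On the control day 13 arrays 19, 12, 10 and 41 of the 64 members lay above their own mean over the 14 arrays. The count was 36, 38 and 48 on the control day 15 arrays, 43, 56, 20 and 22 on the estrogen day 13 arrays and 56, 49 and 17 on the estrogen day 15 arrays. Control day 13 replicates 1 to 3 held the fewest together with estrogen day 15 replicate 3, and control day 13 replicate 4 lay among the other groups. The share of all probe sets above their own mean ranged only from 43.1% to 58.7% of 16754 over the same arrays.

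**Figure D1:**
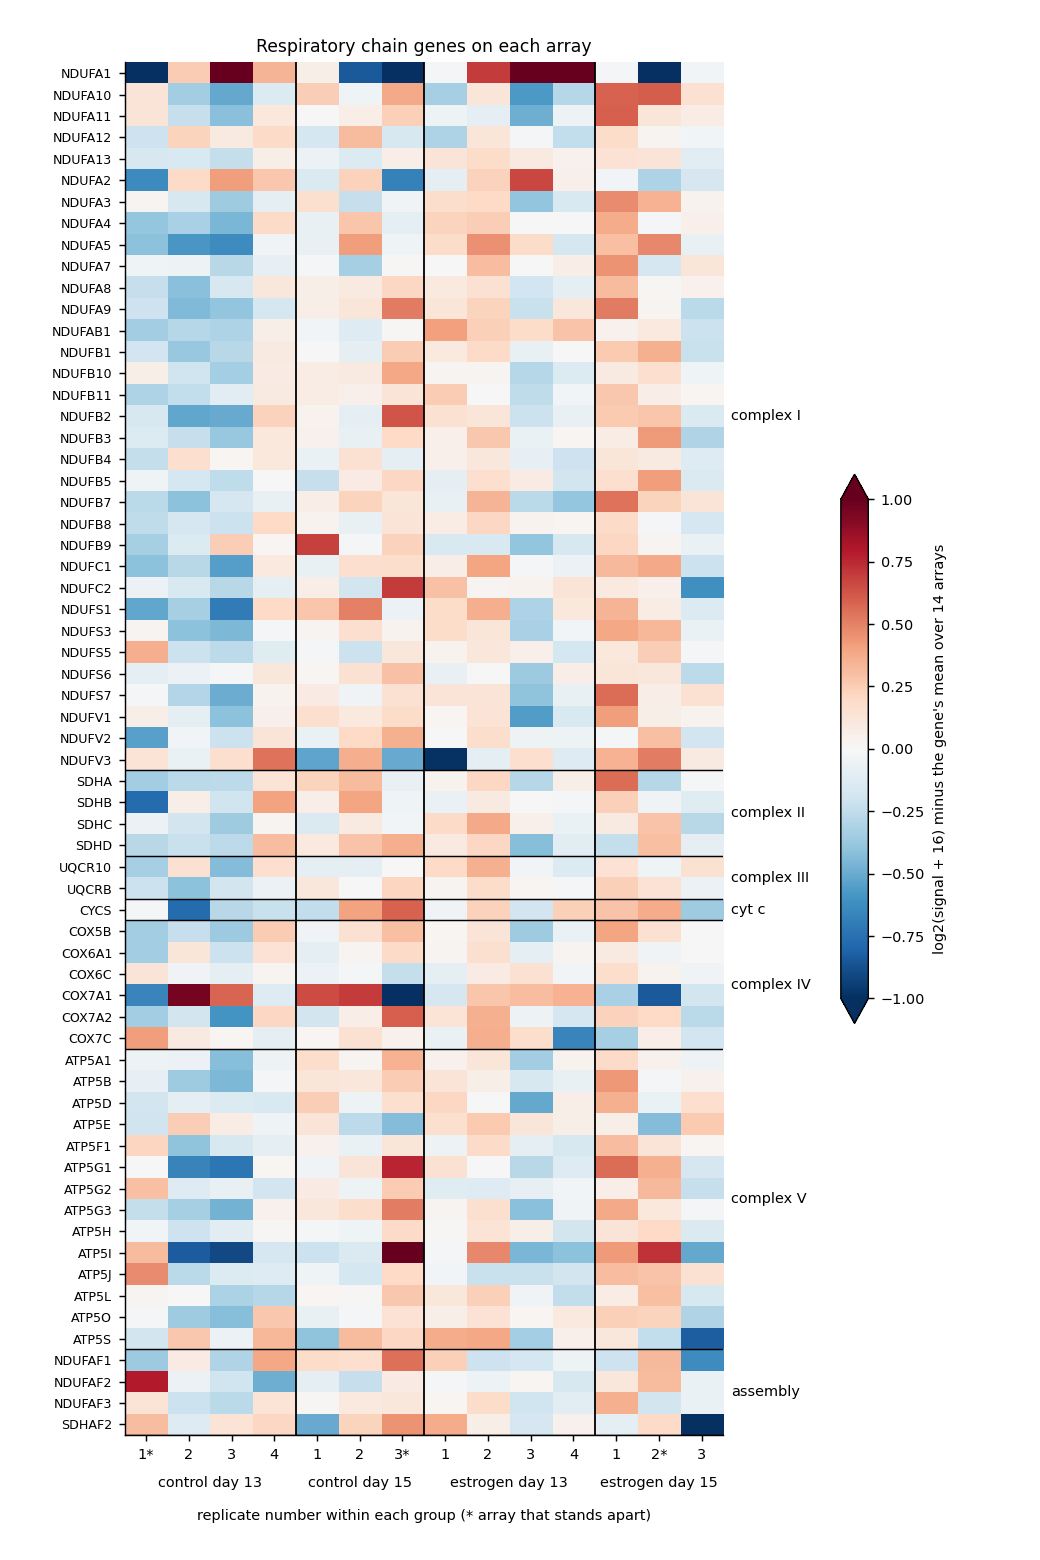
Deviation of each of the 64 tested genes (rows, by complex) from its own mean over 14 arrays, in log2(signal + 16), for every array (columns, by group); the colour scale ends at 1 either way. Replicates 1 to 3 of control day 13 are blue across most rows, while NDUFA1 and COX7A1 go their own way and ATP5I varies widely.

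Estrogen against control was compared at each day. At day 13 the share of probe sets with a positive difference was 46.8%, against 51 of 64 members. An unadjusted p under 0.05 was reached by 3 members, all with positive differences, against a background of 2.89%. That count was 7 against 3.83% without control day 13 replicate 4, 2 to 4 without any other single array, and 15 against 7.23% with array weights. At day 15 the median member difference was 0.02 (all probe sets 0.03), 36 of 64 were positive against 54.3% of all probe sets, and 0 had an unadjusted p under 0.05 against 3.83%. Averaged over both days the median was 0.09 (all probe sets 0.01), 48 of 64 were positive against 51.4%, and 2 had an unadjusted p under 0.05 against 3.22%. The lowest adjusted p of a member (limma) was 1.00 at day 13 and 0.985 at day 15. The 95% interval of the difference lay within 2-fold either way for 60 of 64 members at day 13 and for 58 of 64 at day 15.

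Day 15 was compared with day 13 within each treatment. In control gilts 47.6% of all probe sets had a positive difference, against 52 of 64 members, and 8 members had an unadjusted p under 0.05, all positive, against 3.92%. That count was 16 against 5.13% without control day 13 replicate 4, 3 without its replicate 2 or its replicate 3, 2 against 2.36% without control day 15 replicate 3 and 2 against 2.24% with only the groups compared in the fit. In estrogen gilts the median member difference was 0.06 (all probe sets 0.02), 47 of 64 were positive against 52.3%, and 4 had an unadjusted p under 0.05 against 8.61%. Averaged over both treatments the median was 0.15 (all probe sets 0.00), 55 of 64 were positive against 49.6%, and 8 had an unadjusted p under 0.05 against 8.56%. The lowest adjusted p of a member (limma) was 0.966 in control gilts, 0.364 in estrogen gilts and 0.295 averaged. Intervals lay within 2-fold for 57 of 64 members in each treatment.

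For few members the 2 groups compared did not overlap. At day 13, 4 members (NDUFAB1, NDUFA7, NDUFC2 and UQCRB) lay higher on every estrogen array than on any control array, against 1.74% of all probe sets, and 0 lay lower, against 0.985%. At day 15 there were 0 in either direction, against 4.12% higher and 3.18% lower. Some dimmer probe sets that were not used did separate there. Those of SDHAF2, SDHA and NDUFAF1 lay lower on every estrogen day 15 array, and a probe set of ATP5L lay higher. In control gilts 8 members lay higher on every day 15 array than on any day 13 array (NDUFA9, NDUFB7, NDUFV1, UQCRB, ATP5A1, ATP5B, ATP5D and ATP5G3), against 1.74%, and 0 lower, against 1.78%. In estrogen gilts 4 lay higher at day 15 (NDUFA10, NDUFA11, NDUFB9 and ATP5J), against 7.96%, and 3 lower (NDUFA1, NDUFAB1 and COX7A1), against 6.50%.

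The estrogen effect was also compared between the days. Its difference (day 15 effect minus day 13 effect) had a median of -0.15 over the members and 0.04 over all probe sets, and 18 of 64 members were positive against 54.4%. An unadjusted p under 0.05 was reached by 2 members against 3.55%, and the lowest adjusted p was 0.990 (limma). The median over the members turned positive in 2 of 28 alternative settings, those with RNA quality as a covariate (given below).

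The number of probe sets called between the days depended on the arrays used. Without the 3 that stand apart limma called 1.32% of probe sets for day 15 against day 13 in estrogen gilts and 0.985% averaged over both treatments. With array weights in their place it called 1.00% and 0.710%, and with only the groups compared in the fit it called 0.591% in estrogen gilts. No member was among those called under any of these settings.

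Marker genes of cell types were measured on the same arrays as the respiratory genes. Counts and medians cover the marker genes that passed the filter, and mean levels cover all marker genes of a list on the array. In bulk tissue, fewer cells of a type and less RNA per cell cannot be told apart. Smooth muscle markers had positive differences for 4 of 5 genes from day 13 to day 15 in control gilts (median 0.28) and for 5 of 5 with estrogen at day 13 (median 0.35), and their mean level ranged from 9.22 to 10.03 at control day 13, from 9.42 to 9.98 at control day 15 and from 9.56 to 9.95 at estrogen day 13. Epithelial markers had positive differences for 2 of 8 genes in the first comparison and 4 of 8 in the other, with mean levels of 11.71 to 12.10, 11.17 to 11.90 and 11.47 to 11.87 in the same 3 groups. Macrophage markers had positive day differences for 7 of 7 genes in control gilts (median 0.53) and 6 of 7 in estrogen gilts (median 1.38), and MRC1, the mannose receptor of macrophages, was the 1 probe set called, with an average log2 difference of 2.01 ± 0.24 (SE) and an adjusted p of 0.013 (limma). Endothelial markers had positive differences for 5 of 5 genes from day 13 to day 15 in control gilts (median 0.16) and for 3 of 5 with estrogen at day 13 (median 0.01), with mean levels of 8.64 to 9.42 at control day 13, 9.11 to 9.51 at control day 15 and 8.88 to 9.15 at estrogen day 13. Lymphocyte markers had positive differences for 5 of 6 genes between the days in control gilts (median 0.26), 6 of 6 in estrogen gilts (median 0.59) and 0 of 6 with estrogen at day 13 (median -0.34). Their mean level ranged from 5.98 to 6.88 at control day 13, from 6.19 to 7.19 at control day 15, from 5.70 to 6.48 at estrogen day 13 and from 6.70 to 7.54 at estrogen day 15. The part of these cell types in the values of the respiratory genes was not tested.

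RNA quality also differed among the arrays. The log2 difference between the 3 prime and 5 prime control probe sets of GAPDH was 1.99 to 2.58 at control day 13, 1.09 to 2.39 at control day 15, 1.86 to 2.20 at estrogen day 13 and 1.36 to 2.84 at estrogen day 15. The day 15 groups thus held both the lowest and the highest values. With a summary of these control probe sets as a covariate the median member difference was 0.19 between the days in control gilts, 0.18 between the days in estrogen gilts, 0.12 for estrogen at day 13 and 0.10 at day 15.

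Among the complexes, the median difference between the days in control gilts was 0.24 for complex I, 0.30 for complex II, 0.19 for complex III, 0.04 for complex IV and 0.20 for complex V. For estrogen at day 13 the medians were 0.17, 0.16, 0.24, 0.06 and 0.12 in the same order. Complex IV had the median nearest 0 in both. Between the days in estrogen gilts the medians were 0.09, 0.04, 0.02, -0.01 and 0.15, and for estrogen at day 15 they were 0.03, -0.09, 0.08, -0.06 and -0.02. With 1 array left out, the medians between the days in estrogen gilts ranged from 0.03 to 0.21 for complex I, from -0.11 to 0.10 for complex II, from -0.03 to 0.09 for complex III and from -0.05 to 0.04 for complex IV, so that the sign turned for the last 3. For estrogen at day 15 it turned in this way for complexes I, II, IV and V. Complexes differ in size, and their difference from each other was not tested.

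**Figure D2:**
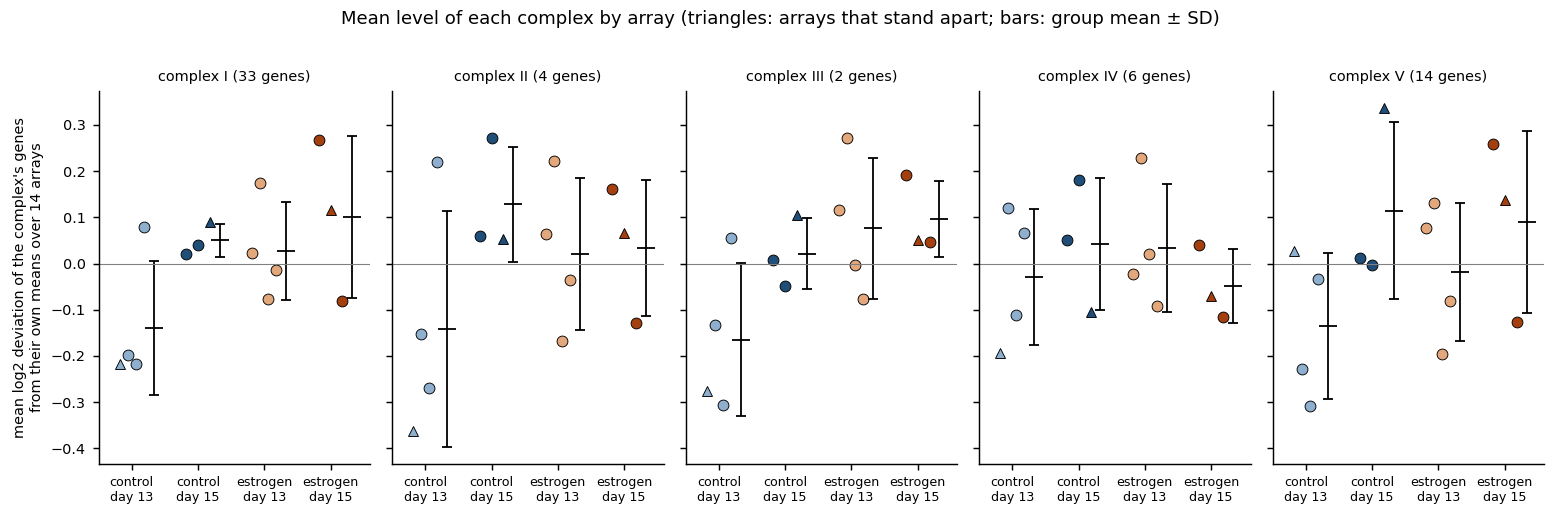
Mean log2 deviation of the tested genes of each complex from their own means over 14 arrays (vertical axis), per array and group; bars give the group mean ± SD and triangles the arrays that stand apart. For complex I, control day 13 replicates 1 to 3 lie between -0.22 and -0.20 and every array of control day 15 lies above them, while replicate 4 of control day 13 lies at 0.08.

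Complex I passes electrons from NADH through a flavin and a chain of iron-sulfur clusters to ubiquinone. Its mean deviation was -0.22, -0.20, -0.22 and 0.08 on the control day 13 arrays, 0.02, 0.04 and 0.09 on the control day 15 arrays, 0.02, 0.17, -0.08 and -0.01 on the estrogen day 13 arrays and 0.27, 0.11 and -0.08 on the estrogen day 15 arrays. The control day 13 group overlapped each of the others through replicate 4. For day 15 against day 13 in control gilts 28 of 33 genes had a positive difference, from -0.59 (NDUFA1) to 0.58 (NDUFS1). With estrogen at day 13 25 of 33 did, from -0.46 (NDUFV3) to 0.95 (NDUFA1), and at day 15 24 of 33 did, from -0.35 (NDUFC2) to 0.54 (NDUFV3).

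By part of the complex, the Q module, where ubiquinone is reduced, had 4 of 4 genes positive for day 15 against day 13 in control gilts, with a median difference of 0.40. The N module, which takes the electrons from NADH, had a median of 0.08 with 5 of 8 positive. The 21 genes of the membrane arm or without a placed module had a median of 0.23, and the 5 measured core subunits (NDUFV1, NDUFV2, NDUFS1, NDUFS3 and NDUFS7), which carry the flavin or iron-sulfur clusters or lie beside them, had a median of 0.29 with 5 of 5 positive. With estrogen at day 13 the Q module had 0.28, the N module 0.06 and the core 0.18. NDUFS3, which is in both the Q module and the core, had other probe sets that disagreed. Between the days in control gilts the one used gave 0.29 ± 0.19 (SE), and the others gave -0.66 ± 0.32 (SE) and 0.33 ± 0.26 (SE). In estrogen gilts they gave 0.23, -0.73 and -0.26 in the same order.

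NDUFA9, a Q module subunit that stabilises the junction of the arms of the complex, read 10.24, 10.01, 10.05 and 10.27 on the control day 13 arrays, 10.51, 10.57 and 10.97 on the control day 15 arrays, 10.57, 10.67, 10.23 and 10.56 on the estrogen day 13 arrays and 10.97, 10.47 and 10.18 on the estrogen day 15 arrays. Its 3 control day 15 arrays lay above all 4 control day 13 arrays, and the other pairs of groups that differ in day or treatment alone overlapped. The difference between the days in control gilts was 0.54 ± 0.20 (SE), with an unadjusted p of 0.017 and an adjusted p of 0.966 (limma). With estrogen at day 13 it was 0.37 ± 0.19 (SE) (adjusted p = 1.00, limma).

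NDUFS1, the largest core subunit, which carries 3 of the iron-sulfur clusters, read 9.66, 9.85, 9.48 and 10.38 on the control day 13 arrays, 10.46, 10.69 and 10.12 on the control day 15 arrays, 10.36, 10.54, 9.87 and 10.28 on the estrogen day 13 arrays and 10.52, 10.26 and 10.04 on the estrogen day 15 arrays. The lowest 3 values of all 14 were control day 13 replicates 3, 1 and 2, and replicate 4 of that group lay above a control day 15 array. The difference between the days in control gilts was 0.58 ± 0.24 (SE) (unadjusted p = 0.028, adjusted p = 0.966, limma), and with estrogen at day 13 it was 0.42 ± 0.22 (SE).

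NDUFAB1 is the mitochondrial acyl carrier protein, which serves both complex I and the synthesis of fatty acids and lipoic acid. It read 11.26, 11.32, 11.30 and 11.67 on the control day 13 arrays, 11.58, 11.49 and 11.62 on the control day 15 arrays, 12.02, 11.85, 11.80 and 11.90 on the estrogen day 13 arrays and 11.65, 11.71 and 11.39 on the estrogen day 15 arrays. The 4 estrogen day 13 arrays were the highest 4 of all 14, above every control day 13 array and every estrogen day 15 array. The difference for estrogen at day 13 was 0.50 ± 0.14 (SE), with a 95% interval of 0.21 to 0.79 and the lowest unadjusted p of any member in that comparison (0.0025). Its adjusted p was 1.00 (limma). At day 15 the estrogen difference was 0.02 ± 0.16 (SE), between the days in estrogen gilts it was -0.31 ± 0.15 (SE), and the day 15 estrogen effect minus the day 13 effect was -0.48 ± 0.21 (SE) (unadjusted p = 0.037, adjusted p = 0.99, limma).

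**Figure D3:**
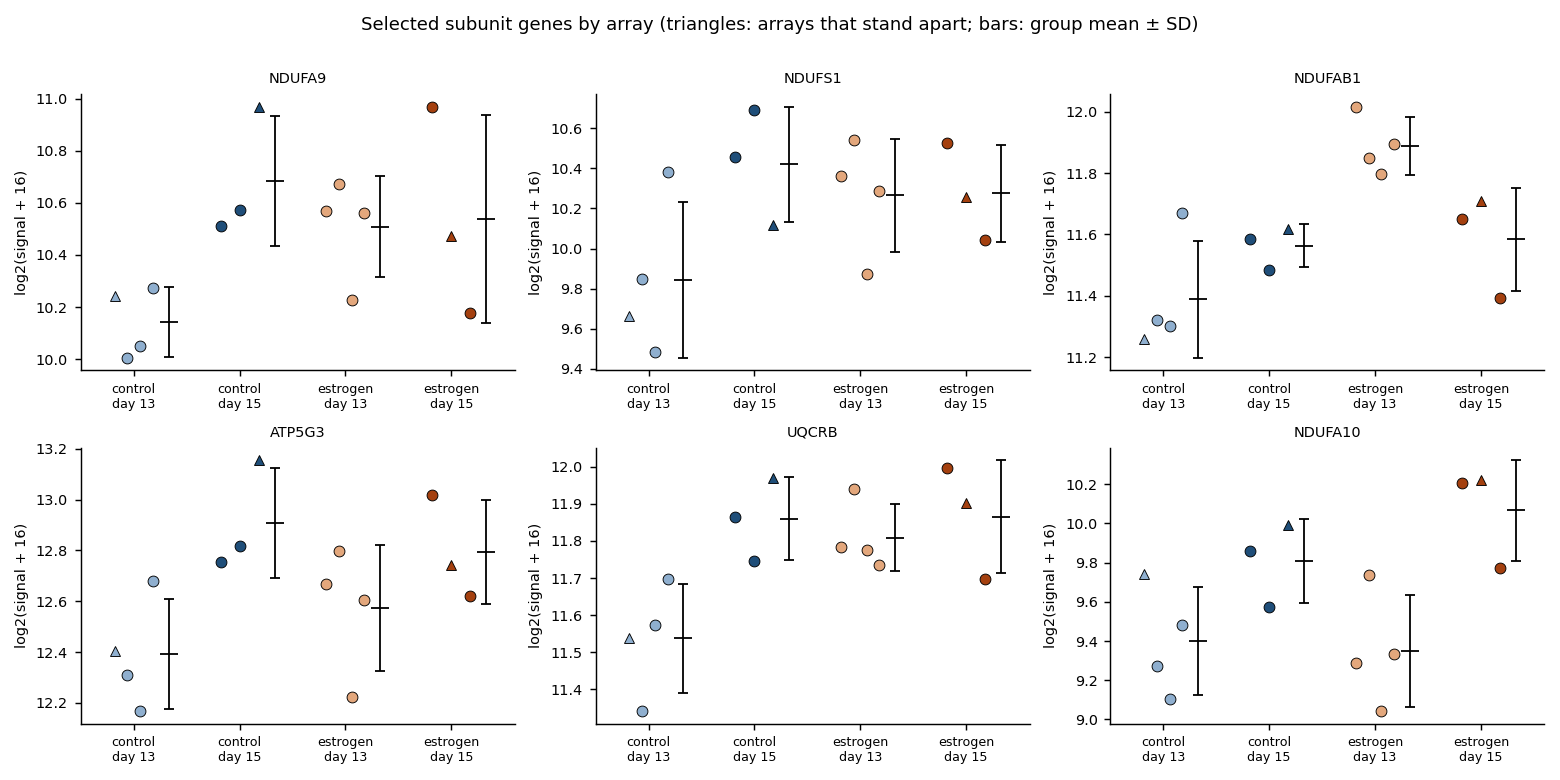
Log2(signal + 16) of 6 subunit genes (vertical axes, each with its own range) on every array by group, with group mean ± SD; triangles are the arrays that stand apart. For NDUFAB1 the estrogen day 13 arrays lie above all others, and for NDUFA9, ATP5G3 and UQCRB the control day 13 arrays lie below those of control day 15.

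NDUFA5, an accessory subunit of the Q module, read 9.01, 8.84, 8.79 and 9.39 on the control day 13 arrays, 9.35, 9.84 and 9.38 on the control day 15 arrays, 9.61, 9.88, 9.60 and 9.25 on the estrogen day 13 arrays and 9.73, 9.90 and 9.35 on the estrogen day 15 arrays. Its 3 lowest values were control day 13 replicates 1 to 3, and replicate 4 of that group lay above an estrogen day 13 array. The difference was 0.58 ± 0.20 (SE) for estrogen at day 13 (unadjusted p = 0.012) and 0.52 ± 0.21 (SE) between the days in control gilts (unadjusted p = 0.031), with adjusted p values of 1.00 and 0.966 (limma).

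NDUFA4, which remains bound to complex IV, read 11.98, 12.05, 11.91 and 12.56 on the control day 13 arrays, 12.30, 12.65 and 12.29 on the control day 15 arrays, 12.60, 12.62, 12.37 and 12.38 on the estrogen day 13 arrays and 12.74, 12.36 and 12.42 on the estrogen day 15 arrays. Control day 13 replicates 1 to 3 were again the lowest 3, and its replicate 4 lay within the estrogen day 13 values. NDUFC1, a small membrane subunit, read 10.62, 10.76, 10.49 and 11.13 on the control day 13 arrays, 10.96, 11.20 and 11.21 on the control day 15 arrays, 11.10, 11.43, 11.03 and 10.98 on the estrogen day 13 arrays and 11.36, 11.42 and 10.82 on the estrogen day 15 arrays. The same 3 arrays were lowest, and replicate 4 lay among the other groups. For estrogen at day 13 the differences were 0.36 ± 0.17 (SE) for NDUFA4 and 0.38 ± 0.18 (SE) for NDUFC1, with unadjusted p values of 0.05 and 0.056.

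NDUFA10, an accessory subunit of the membrane arm that resembles nucleoside kinases, read 9.74, 9.27, 9.11 and 9.48 on the control day 13 arrays, 9.86, 9.57 and 9.99 on the control day 15 arrays, 9.29, 9.74, 9.04 and 9.33 on the estrogen day 13 arrays and 10.21, 10.22 and 9.77 on the estrogen day 15 arrays. The 3 estrogen day 15 arrays lay above all 4 estrogen day 13 arrays, by 0.035 at the nearest, and the control groups overlapped. The difference between the days was 0.72 ± 0.21 (SE) in estrogen gilts, with a 95% interval of 0.26 to 1.17, and 0.41 ± 0.21 (SE) in control gilts. It had the lowest unadjusted p of any member in estrogen gilts (0.0044) and averaged over both treatments (0.0021), with adjusted p values of 0.364 and 0.295 (limma).

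NDUFA11, a membrane arm subunit, read 10.42, 10.05, 9.86 and 10.39 on the control day 13 arrays, 10.29, 10.36 and 10.52 on the control day 15 arrays, 10.24, 10.19, 9.80 and 10.23 on the estrogen day 13 arrays and 10.89, 10.41 and 10.36 on the estrogen day 15 arrays. Estrogen day 15 lay above estrogen day 13 on every array, while the control groups overlapped. NDUFB7, an accessory subunit of the membrane arm, read 10.09, 9.95, 10.19 and 10.29 on the control day 13 arrays, 10.42, 10.59 and 10.48 on the control day 15 arrays, 10.29, 10.70, 10.09 and 9.97 on the estrogen day 13 arrays and 10.90, 10.58 and 10.49 on the estrogen day 15 arrays. All control day 15 arrays lay above all control day 13 arrays, and in estrogen gilts day 13 replicate 2 lay among the day 15 values. The differences between the days in estrogen gilts were 0.44 ± 0.19 (SE) for NDUFA11 and 0.40 ± 0.19 (SE) for NDUFB7, with adjusted p values of 0.554 and 0.582 (limma).

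NDUFV3, a small accessory subunit beside the flavin, read 7.34, 7.13, 7.36 and 7.74 on the control day 13 arrays, 6.67, 7.56 and 6.70 on the control day 15 arrays, 6.21, 7.10, 7.36 and 7.07 on the estrogen day 13 arrays and 7.55, 7.71 and 7.28 on the estrogen day 15 arrays. Estrogen day 13 replicate 1 was the lowest of all arrays, and all groups overlapped. It had the lowest unadjusted p for the change of the estrogen effect from day 13 to day 15, 0.99 ± 0.42 (SE) (unadjusted p = 0.033, adjusted p = 0.99, limma), and its differences of -0.46 for estrogen at day 13 and -0.42 between the days in control gilts were negative where those of most members were positive.

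NDUFA3, NDUFA7 and NDUFC2, all accessory subunits, had among the lowest unadjusted p values for estrogen at day 15. NDUFA3 read 10.82, 10.63, 10.44 and 10.69 on the control day 13 arrays, 10.96, 10.56 and 10.75 on the control day 15 arrays, 10.97, 10.99, 10.40 and 10.64 on the estrogen day 13 arrays and 11.27, 11.14 and 10.83 on the estrogen day 15 arrays, with overlap in every comparison. NDUFA7 read 10.46, 10.45, 10.23 and 10.42 on the control day 13 arrays, 10.49, 10.17 and 10.52 on the control day 15 arrays, 10.50, 10.81, 10.51 and 10.57 on the estrogen day 13 arrays and 10.95, 10.34 and 10.62 on the estrogen day 15 arrays. Its estrogen day 13 arrays lay above those of control day 13 by 0.04 at the nearest, and its day 15 groups overlapped. NDUFC2 read 11.23, 11.14, 11.02 and 11.19 on the control day 13 arrays, 11.36, 11.11 and 11.99 on the control day 15 arrays, 11.58, 11.32, 11.33 and 11.42 on the estrogen day 13 arrays and 11.39, 11.34 and 10.67 on the estrogen day 15 arrays, with control day 15 replicate 3 the highest and estrogen day 15 replicate 3 the lowest of all arrays. At day 15 the estrogen differences were 0.32 ± 0.20 (SE) for NDUFA3, 0.25 ± 0.18 (SE) for NDUFA7 and -0.35 ± 0.23 (SE) for NDUFC2, with unadjusted p values of 0.133, 0.2 and 0.153. With 1 array left out, NDUFC2 had -0.10 without control day 15 replicate 3 and -0.54 without replicate 2 of that group. NDUFA7 had 0.09 without estrogen day 15 replicate 1 and 0.40 without replicate 2 of that group.

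NDUFA13, also known as GRIM-19, lies in the membrane arm, and was among the steadiest members, with a within-group SD of 0.11. It read 11.60, 11.61, 11.53 and 11.82 on the control day 13 arrays, 11.71, 11.63 and 11.83 on the control day 15 arrays, 11.89, 11.95, 11.86 and 11.80 on the estrogen day 13 arrays and 11.91, 11.89 and 11.66 on the estrogen day 15 arrays. Control day 13 replicate 4 lay within the estrogen day 13 values, and the other 3 control day 13 arrays lay below them. The estrogen difference was 0.23 ± 0.12 (SE) at day 13 and 0.17 ± 0.09 (SE) averaged over both days (unadjusted p = 0.103).

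NDUFA1, an essential small membrane subunit, gave a different reading from each of its 2 probe sets. The probe set with the higher mean, whose name marks probes that match more than 1 transcript, read 9.71, 11.89, 12.87 and 11.97 at control day 13, 11.69, 10.79 and 10.58 at control day 15, 11.63, 12.33, 13.18 and 13.11 at estrogen day 13 and 11.62, 9.92 and 11.61 at estrogen day 15. Its values spanned 9.71 to 13.18 with a within-group SD of 0.98, and the 3 arrays that stand apart held its 3 lowest values. The other probe set read 11.33, 11.41, 11.47 and 11.54 at control day 13, 11.52, 11.41 and 11.70 at control day 15, 11.67, 11.82, 11.63 and 11.36 at estrogen day 13 and 11.59, 11.79 and 11.35 at estrogen day 15, with a within-group SD of 0.17. Between the days in estrogen gilts the first gave -1.51 ± 0.65 (SE) (adjusted p = 0.547, limma) and the other -0.04 ± 0.16 (SE), and for estrogen at day 13 they gave 0.95 ± 0.60 (SE) and 0.18 ± 0.15 (SE). Without the 3 arrays that stand apart the first gave -0.95 ± 0.42 (SE) between the days in estrogen gilts, -1.0 ± 0.45 (SE) in control gilts, where all arrays gave -0.59, and 0.32 ± 0.37 (SE) for estrogen at day 13. The extremes named for NDUFA1 above therefore rest on 1 of its 2 probe sets.

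**Figure D4:**
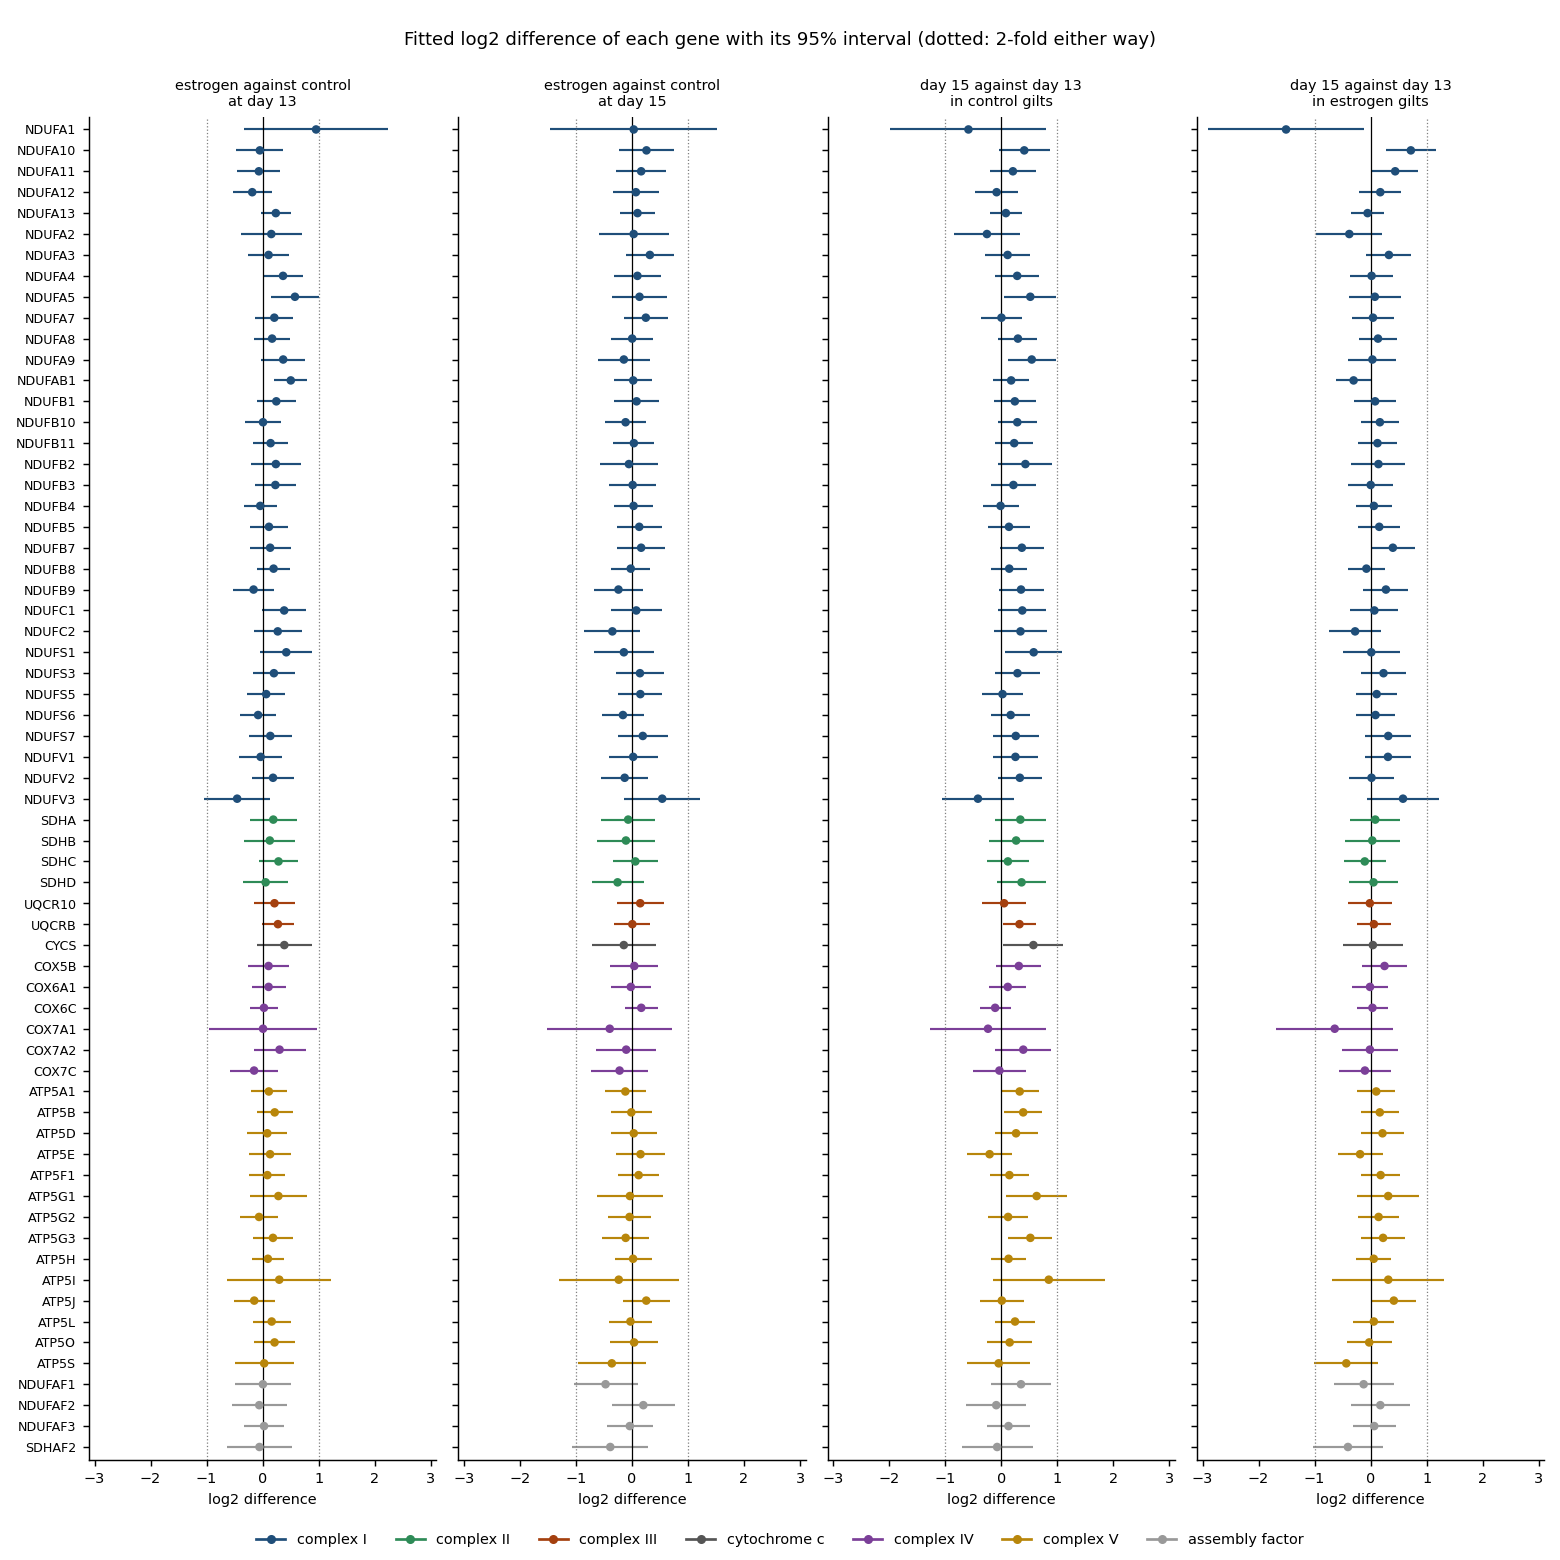
Fitted log2 difference (horizontal axes) of each of the 64 tested genes (rows, coloured by complex) with its 95% interval in 4 comparisons; dotted lines mark 2-fold either way. Points lie mostly right of 0 for estrogen at day 13 and for the days in control gilts, and around 0 for estrogen at day 15.

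Complex II, succinate dehydrogenase, belongs to both the citric acid cycle and the chain. SDHA carries the flavin, SDHB the iron-sulfur clusters, and SDHC and SDHD anchor the complex in the membrane. Its mean deviation was -0.36, -0.15, -0.27 and 0.22 at control day 13, 0.06, 0.27 and 0.05 at control day 15, 0.06, 0.22, -0.17 and -0.04 at estrogen day 13 and 0.16, 0.07 and -0.13 at estrogen day 15. Control day 13 replicate 4 was among the highest of the 14 arrays and replicates 1 and 3 the lowest. From day 13 to day 15 in control gilts 4 of 4 genes had a positive difference, from 0.12 (SDHC) to 0.36 (SDHD), and with estrogen at day 13 4 of 4 did, from 0.05 (SDHD) to 0.28 (SDHC). At day 15 the estrogen difference was positive for 1 of 4, from -0.26 (SDHD) to 0.06 (SDHC). Second probe sets of SDHA and SDHB gave -0.42 and 0.38 between the days in estrogen gilts where the ones used gave 0.08 and 0.03. For estrogen at day 15 the second ones gave -0.50 and 0.31, where the ones used gave -0.07 and -0.11.

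Complex III was represented by UQCR10 and UQCRB, both small subunits around the cytochrome core. UQCRB read 11.54, 11.34, 11.57 and 11.70 on the control day 13 arrays, 11.87, 11.75 and 11.97 on the control day 15 arrays, 11.78, 11.94, 11.78 and 11.73 on the estrogen day 13 arrays and 12.00, 11.90 and 11.70 on the estrogen day 15 arrays. Its control day 13 arrays lay below every control day 15 array and every estrogen day 13 array, by 0.04 at the nearest in the latter. The name of its probe set, like that of the brighter one of NDUFA1, marks probes that match more than 1 transcript. The difference was 0.32 ± 0.14 (SE) between the days in control gilts (unadjusted p = 0.037, adjusted p = 0.966, limma) and 0.27 ± 0.13 (SE) for estrogen at day 13 (unadjusted p = 0.056, adjusted p = 1.00, limma). UQCR10 had differences of 0.05 ± 0.18 (SE) and 0.21 ± 0.17 (SE) in these comparisons.

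Cytochrome c, encoded by CYCS, carries electrons from complex III to complex IV and triggers caspases when it leaves the mitochondria. CYCS read 10.32, 9.57, 10.06 and 10.12 on the control day 13 arrays, 10.10, 10.74 and 10.93 on the control day 15 arrays, 10.30, 10.57, 10.15 and 10.58 on the estrogen day 13 arrays and 10.63, 10.71 and 9.98 on the estrogen day 15 arrays. Control day 13 replicate 2 was the lowest of all arrays and control day 15 replicate 3 the highest, and the groups overlapped in every comparison. Its difference between the days in control gilts was 0.57 ± 0.25 (SE) (unadjusted p = 0.038, adjusted p = 0.966, limma). In estrogen gilts it was 0.04 ± 0.25 (SE), and the estrogen difference was 0.39 ± 0.23 (SE) at day 13 and -0.15 ± 0.27 (SE) at day 15.

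Complex IV, cytochrome c oxidase, reduces oxygen to water. The nuclear subunits measured here surround a catalytic core encoded in mitochondrial DNA. Its mean deviation was -0.19, 0.12, -0.11 and 0.07 at control day 13, 0.05, 0.18 and -0.10 at control day 15, -0.02, 0.23, 0.02 and -0.09 at estrogen day 13 and 0.04, -0.07 and -0.12 at estrogen day 15, and every pair of groups overlapped. Between the days in control gilts 3 of 6 genes had a positive difference, from -0.24 (COX7A1) to 0.39 (COX7A2), and with estrogen at day 13 5 of 6 did, from -0.15 (COX7C) to 0.30 (COX7A2). COX6C, a subunit made in all tissues, was among the steadiest members with a within-group SD of 0.11.

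Subunit VIIa exists as a form of heart and skeletal muscle (COX7A1) and a form found in most tissues (COX7A2). COX7A1 read 8.79, 10.40, 10.03 and 9.32 on the control day 13 arrays, 10.10, 10.15 and 7.94 on the control day 15 arrays, 9.28, 9.73, 9.76 and 9.80 on the estrogen day 13 arrays and 9.12, 8.61 and 9.27 on the estrogen day 15 arrays. The 3 arrays that stand apart held its 3 lowest values, 7.94 to 8.79, and the other 11 lay between 9.12 and 10.40. COX7A2 read 11.52, 11.67, 11.26 and 12.07 on the control day 13 arrays, 11.68, 11.93 and 12.46 on the control day 15 arrays, 12.00, 12.22, 11.81 and 11.70 on the estrogen day 13 arrays and 12.10, 12.06 and 11.59 on the estrogen day 15 arrays, and its highest value was on control day 15 replicate 3, where COX7A1 was lowest. The differences between the days were -0.24 ± 0.48 (SE) in control and -0.64 ± 0.48 (SE) in estrogen gilts for COX7A1, and 0.39 ± 0.23 (SE) and -0.01 ± 0.23 (SE) for COX7A2. Without the 3 arrays that stand apart COX7A1 had 0.21 ± 0.27 (SE) in control gilts, where the sign turned, and -0.45 ± 0.26 (SE) in estrogen gilts, and COX7A2 had 0.13 ± 0.24 (SE) and -0.09 ± 0.23 (SE). All estrogen day 15 arrays read COX7A1 lower than any estrogen day 13 array, by 0.015 at the nearest. Mean levels of the smooth muscle markers on the 3 arrays that stand apart were 9.22, 9.98 and 10.03, those on the other arrays ranged from 9.26 to 10.03, and the striated muscle markers were under the filter.

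**Figure D5:**
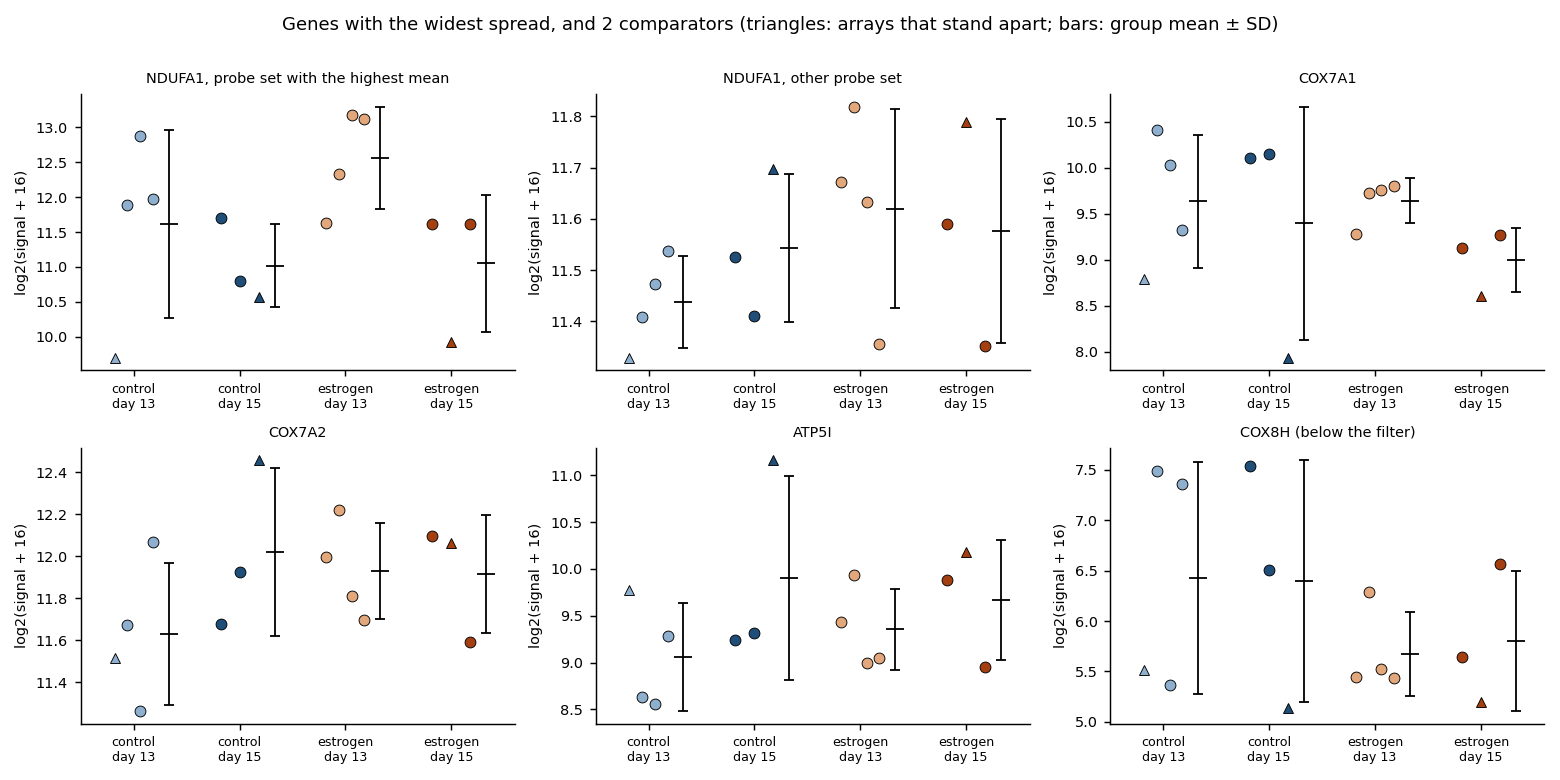
Log2(signal + 16) (vertical axes, each with its own range) on every array by group for both NDUFA1 probe sets, COX7A1, COX7A2, ATP5I and COX8H, with group mean ± SD; triangles are the arrays that stand apart. COX7A1 and the NDUFA1 probe set with the higher mean are lowest on those arrays, while ATP5I is highest on control day 15 replicate 3.

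Complex V joins a catalytic F1 part to a membrane part whose ring of c subunits turns as protons pass. Its mean deviation was 0.03, -0.23, -0.31 and -0.03 at control day 13, 0.01, 0.00 and 0.34 at control day 15, 0.08, 0.13, -0.20 and -0.08 at estrogen day 13 and 0.26, 0.14 and -0.13 at estrogen day 15. Control day 15 replicate 3, which stands apart, was the highest of all arrays, and the groups overlapped. Between the days in control gilts 12 of 14 genes had a positive difference, from -0.21 (ATP5E) to 0.85 (ATP5I), and with estrogen at day 13 12 of 14 did, from -0.15 (ATP5J) to 0.30 (ATP5I). At day 15 the estrogen difference was positive for 6 of 14.

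The F1 genes measured were ATP5A1 and ATP5B, the alpha and beta subunits that form the catalytic hexamer, and ATP5D and ATP5E of the central stalk. ATP5B read 12.71, 12.44, 12.35 and 12.78 on the control day 13 arrays, 12.92, 12.91 and 13.05 on the control day 15 arrays, 12.93, 12.86, 12.63 and 12.72 on the estrogen day 13 arrays and 13.23, 12.78 and 12.84 on the estrogen day 15 arrays. Its control day 15 arrays lay above every control day 13 array, and its difference was 0.39 ± 0.16 (SE) (unadjusted p = 0.029, adjusted p = 0.966, limma). ATP5A1 and ATP5D showed the same separation, with differences of 0.33 ± 0.16 (SE) and 0.26 ± 0.18 (SE). ATP5E had a difference of -0.21 ± 0.19 (SE).

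Subunit c of the ring is encoded by 3 genes, ATP5G1, ATP5G2 and ATP5G3, whose mature proteins are the same and whose targeting peptides differ. ATP5G3 read 12.40, 12.31, 12.17 and 12.68 on the control day 13 arrays, 12.75, 12.82 and 13.15 on the control day 15 arrays, 12.67, 12.80, 12.22 and 12.61 on the estrogen day 13 arrays and 13.02, 12.74 and 12.62 on the estrogen day 15 arrays. Its control day 15 arrays lay above every control day 13 array. ATP5G1 read 11.69, 11.02, 10.96 and 11.71 on the control day 13 arrays, 11.65, 11.82 and 12.45 on the control day 15 arrays, 11.84, 11.69, 11.41 and 11.56 on the estrogen day 13 arrays and 12.24, 12.04 and 11.52 on the estrogen day 15 arrays, where control day 13 replicates 2 and 3 were lowest, replicates 1 and 4 overlapped control day 15, and control day 15 replicate 3 was highest. ATP5G2 read 12.02, 11.58, 11.64 and 11.52 on the control day 13 arrays, 11.80, 11.66 and 11.97 on the control day 15 arrays, 11.60, 11.59, 11.63 and 11.68 on the estrogen day 13 arrays and 11.78, 12.04 and 11.49 on the estrogen day 15 arrays, with its 3 highest values on the 3 arrays that stand apart.

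The day difference in control gilts was 0.52 ± 0.18 (SE) for ATP5G3, the lowest unadjusted p of any member (0.014), 0.63 ± 0.26 (SE) for ATP5G1 and 0.12 ± 0.17 (SE) for ATP5G2. The adjusted p was 0.966 for ATP5G3 and 0.966 for ATP5G1 (limma). In estrogen gilts the differences were 0.22 ± 0.18 (SE), 0.31 ± 0.26 (SE) and 0.14 ± 0.17 (SE).

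ATP5J, coupling factor 6 of the peripheral stalk, read 10.46, 9.72, 9.85 and 9.86 on the control day 13 arrays, 9.94, 9.81 and 10.19 on the control day 15 arrays, 9.96, 9.76, 9.76 and 9.80 on the estrogen day 13 arrays and 10.29, 10.27 and 10.14 on the estrogen day 15 arrays. All estrogen day 15 arrays lay above all estrogen day 13 arrays, with a difference of 0.41 ± 0.18 (SE) (unadjusted p = 0.04, adjusted p = 0.554, limma), while the control groups overlapped and gave 0.01 ± 0.18 (SE). ATP5I, subunit e, which helps ATP synthase to form dimers, read 9.77, 8.63, 8.55 and 9.29 on the control day 13 arrays, 9.24, 9.31 and 11.16 on the control day 15 arrays, 9.44, 9.94, 9.00 and 9.05 on the estrogen day 13 arrays and 9.88, 10.18 and 8.95 on the estrogen day 15 arrays. The value of control day 15 replicate 3 was the highest by about 1 unit, and the 95% interval between the days in control gilts was wide, -0.15 to 1.85. The difference was 0.85 ± 0.47 (SE) with all arrays, 0.22 without control day 15 replicate 3 and 0.46 ± 0.34 (SE) without the 3 arrays that stand apart.

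The 4 assembly factors had median differences of -0.03 for estrogen at day 13, -0.21 at day 15, 0.03 between the days in control gilts and -0.03 in estrogen gilts. NDUFAF1, which helps to build the membrane arm of complex I, had the lowest unadjusted p for estrogen at day 15 among the probe sets used. It read 7.59, 8.03, 7.65 and 8.34 on the control day 13 arrays, 8.14, 8.12 and 8.50 on the control day 15 arrays, 8.19, 7.75, 7.78 and 7.90 on the estrogen day 13 arrays and 7.74, 8.28 and 7.32 on the estrogen day 15 arrays. The day 15 groups overlapped through estrogen replicate 2. The difference was -0.47 ± 0.27 (SE) with an unadjusted p of 0.098 and an adjusted p of 0.985 (limma), and the other probe set of the gene gave -0.55. With the probe set used, the difference was -0.24 without estrogen day 15 replicate 3 and -0.72 without replicate 2 of that group. SDHAF2 had a dimmer probe set that gave -0.94 ± 0.24 (SE) for estrogen at day 15, where the one used gave -0.39 ± 0.31 (SE). The dimmer one read 7.27, 7.47 and 7.57 on the control day 15 arrays and 6.58, 6.09 and 6.82 on the estrogen day 15 arrays. Its estrogen difference was -0.43 ± 0.21 (SE) at day 13 and -0.68 ± 0.16 (SE) averaged over both days, where the one used gave -0.06 and -0.22. Between the days in estrogen gilts the dimmer one gave -0.70 ± 0.23 (SE), where the one used gave -0.41 ± 0.29 (SE). No probe set of any gene was called in these comparisons.

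Within groups the respiratory genes varied less than most probe sets. Their median within-group SD was 0.22, against 0.35 for all 16754 probe sets, and 43 of 64 (67.2%) had an SD under 0.25 against 22.4% of all. The most variable were NDUFA1 (0.98), COX8H (0.91), COX7A1 (0.72) and ATP5I (0.69). These shares were not matched for signal level.

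Members tended to deviate together from array to array. After group means were removed, the correlation of a member with the mean of the other members over the 14 arrays was highest for NDUFC1 (r = 0.91), COX5B (0.90) and NDUFA13 (0.89), and lowest for COX7A1 (-0.45), NDUFA1 (-0.39) and ATP5E (-0.34). The median correlation was 0.44 over 647 pairs of genes of the same complex and 0.37 over 1369 pairs of different complexes. Genes on an array share its RNA, labelling and scaling, and these correlations are descriptions.

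Few members separated the 3 arrays that stand apart from the other 11. NDUFA1, NDUFA2 and COX7A1, 3 of 64 members, were lower on all 3 than on any other array, against 5.61% of all probe sets. ATP5G2, 1 of 64, was higher, against 7.22%. Neither share of the members lay above that of all probe sets. Between the days in control gilts NDUFA2 had -0.26 with these arrays and -0.25 ± 0.21 (SE) without them, and ATP5G2 had 0.12 and 0.15 ± 0.14 (SE). In estrogen gilts NDUFA2 had -0.38 and -0.31 ± 0.20 (SE), and ATP5G2 had 0.14 and 0.01 ± 0.13 (SE). Without these arrays the median member difference between the days in control gilts was 0.15, with 52 of 64 positive, and for estrogen at day 13 it was 0.14.

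Other mitochondrial and metabolic genes were read from lists. Of the citric acid cycle, 16 genes were measured. In control gilts 11 of 16 had a positive difference from day 13 to day 15, and the median was 0.26, and 0 of 16 passed the threshold in any comparison. The lowest unadjusted p values there were those of DLD, the lipoamide dehydrogenase shared by several complexes, with 0.63 ± 0.20 (SE), and MDH2, malate dehydrogenase, with 0.82. With estrogen at day 13 the median was 0.09 and 12 of 16 were positive.

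Among 15 glycolytic genes the median difference between the days was 0.16 in control and 0.42 in estrogen gilts, with 12 and 13 positive. The lowest unadjusted p in estrogen gilts was that of LDHB, the lactate dehydrogenase form that favours pyruvate, at -0.65 ± 0.18 (SE), followed by ENO1, enolase, at 1.09. None of the 15 passed the threshold in any comparison. With estrogen at day 13 the glycolytic median was -0.07, with 4 of 15 positive.

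Of 9 genes of uncoupling and antioxidant defence, 8 were positive between the days in control gilts (median 0.18) and 8 in estrogen gilts (median 0.33). The lowest unadjusted p values were those of PRDX3, a mitochondrial peroxiredoxin, in control gilts (0.69 ± 0.22, SE) and SOD2, the mitochondrial superoxide dismutase, in estrogen gilts (1.08 ± 0.31, SE). Of 13 carriers and outer membrane genes, 10 and 11 were positive (medians 0.18 and 0.21), with SLC25A5, an ADP and ATP carrier, lowest in p in control gilts at 0.57 ± 0.26 (SE).

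Of 4 measured regulators of mitochondrial biogenesis, 0 were positive between the days in control gilts (median -0.26) and 3 in estrogen gilts (median 0.14). TFAM, which packages and transcribes mitochondrial DNA, had the lowest unadjusted p of the 4 with estrogen at day 13 (-0.16 ± 0.14, SE). For estrogen at day 15 it was YY1 (0.51 ± 0.17, SE). Of 9 assembly factors outside the symbol rule, 6 were positive in control gilts and 5 in estrogen gilts (medians 0.03 and 0.19). ACAD9, a complex I assembly factor, had the lowest unadjusted p of the 9 in both estrogen comparisons, with -0.36 ± 0.19 (SE) for estrogen at day 13 and 0.62 ± 0.22 (SE) at day 15. No gene of these 4 lists passed the threshold (limma).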

How the data were processed

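Total RNA of 14 endometrium samples was labelled with biotin and hybridised to porcine arrays, per the labels' protocols. The deposited values are linear probe set signal intensities. Every array had the same 2% trimmed mean (500.1), so the authors' values were scaled between arrays, and the software and background correction are not given in the sources used here. The number of arrays limits the precision, since arrays hold no counts.

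Of 24123 probe sets, 188 controls were left out. Intensities were turned into log2(signal + 16), and the dimmest 30% of probe sets by mean (under 6.35) were left out, which kept 16754. A single linear model of the 4 group means was fitted with limma 3.58.1 in R 4.3.3 (lmFit, eBayes with trend, Benjamini-Hochberg adjustment over all probe sets kept, threshold 0.05). P-values set each difference against the spread between arrays within groups, and the labels name no animals. Gene symbols came from the platform annotation, a probe set with several symbols was not named, and all 65 gene identifiers matched the RefSeq table. For 15 members, more than 1 probe set was listed. An array stands apart when its median correlation with the others is below the median over arrays by more than 3 median absolute deviations. The figures were drawn with Python 3.11.15 and matplotlib 3.10.9. The method was tested on simulated data.

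The members, the gene lists and the alternatives were chosen with earlier results of these data known. Every member may be named by the rule used. Values on each array are given for the 3 marker genes, the 5 members with the lowest p in each comparison and pairs of isoforms, and of other lists the genes with the lowest p are named. Genes named for their spread, or for how they read on arrays that stand apart, were picked once their values were known.

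Replicate numbers may pair the samples at day 13. There, same-numbered control and estrogen arrays deviated together in all 4 pairs (correlation 0.13 to 0.28), and the other pairs of arrays gave -0.26 to 0.10. This possible pairing comes from the values and not from the labels, and the main fit does not use it. In the other comparisons at least 1 same-numbered pair had a correlation under 0. Alternatives were other normalizations, filters, pseudocounts and fits, a replicate block, and leaving out arrays. No sequence is shown, and promoters and proteins were not analysed here.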

Additional observations from a re-analysis of the deposited data

Results flagged for a closer look

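Among 4 arrays of a group, the highest or lowest lay far from the other 3 for 7 single genes, in 128 tests of genes, and for 1 mean over a complex. Chance gives such a gap in about 5% of groups, and the share among the genes here was 5.47%. Control day 13 replicate 4 was high for NDUFAB1 (11.67, the others 11.26 to 11.32), for SDHD (12.37, the others 11.79 to 11.84) and for the mean deviation of complex I (0.078, the others -0.22 to -0.20). Control day 13 replicate 3 was low for NDUFA7 (10.23, the others 10.42 to 10.46) and for ATP5A1 (12.78, the others 13.14 to 13.15). Estrogen day 13 replicate 3 was low for NDUFA11 (9.80, the others 10.19 to 10.24) and for NDUFB9 (10.76, the others at least 10.99). Estrogen day 13 replicate 1 was low for COX7A1 (9.28, the others 9.73 to 9.80). None of these arrays is among the 3 that stand apart.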

How the results depend on the processing

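No member was called under any alternative tried (190 of 190 values). The median over the members moved by less than 1 SD between replicates in 193 of 197 values and the medians by complex in 965 of 985. The sign turned in 7 of 197, 5 of them for estrogen at day 15, where the median was 0.019, and in 52 of 985 by complex. For single members only the 5 with the lowest p in each comparison were followed, and these kept their sign in 982 of 983. That choice favours a stable sign. COX7A1, whose sign turned in control gilts without the 3 arrays that stand apart, was not among them in that comparison. Leaving out 1 array moved the median over the members between 0.15 and 0.29 for the days in control gilts (lowest without control day 15 replicate 3, highest without control day 13 replicate 4), between 0.09 and 0.21 for estrogen at day 13, between -0.06 and 0.09 for estrogen at day 15 and between 0.02 and 0.17 for the days in estrogen gilts. For complex IV and estrogen at day 15 the range was -0.10 to 0.075, with the highest value without control day 15 replicate 3.

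With RNA quality as a covariate the day 15 estrogen effect minus the day 13 effect had a median of 0.0062 over the members, 0.022 for complex I and 0.0062 for complex V, and complex IV had 0.085 for estrogen at day 15. With the covariate and without the 3 arrays that stand apart, the medians for the days in estrogen gilts were 0.34 over the members and 0.38, 0.66, 0.34 and 0.24 for complexes I to IV. For estrogen at day 15 they were 0.31 over the members and 0.31, 0.38, 0.40, 0.26 and 0.24 for complexes I to V. The change of the estrogen effect had 0.19 over the members and 0.28, 0.40, 0.24, 0.26 and 0.10 for complexes I to V, and NDUFS1 had 0.31, opposite in sign. Complex II had -0.039 for estrogen at day 13 and 0.45 for the days averaged over both treatments. That setting fits 11 arrays with 5 terms, and the cause was not tested.

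With a replicate block no member was called and the median for estrogen at day 13 was 0.13, and with the day 13 groups alone and the block it was 0.13, with 4 members at an unadjusted p under 0.05 against 4.77% of probe sets. The block changed no call of a member. Over all probe sets, the number called between the days in estrogen gilts was 0, and 221 without the 3 arrays, 168 with array weights, 99 with only the groups compared and 3 with no filter. Averaged over both treatments it was 1, and 165, 119 and 1 under the same first 3 settings, 9 with the covariate, 4 with the covariate and without the 3 arrays, and 0 with the block. Without control day 13 replicate 1 these numbers were 44 and 101, without control day 15 replicate 1 the averaged one was 20, and without control day 15 replicate 3 they were 3 and 10. Among the members, the count at an unadjusted p under 0.05 for the days averaged over both treatments was 16 without estrogen day 15 replicate 3 and 4 when any of 4 arrays was dropped (replicate 2 of control day 13, replicate 3 of control day 15, replicate 3 of estrogen day 13, replicate 1 of estrogen day 15). In estrogen gilts it was 2 without estrogen day 13 replicate 4, and with 1 array left out it lay between 0 and 4 in the 3 comparisons where it was 0 or 2 with all arrays. Without estrogen day 15 replicate 1, 21 of 64 members had a positive estrogen difference at day 15.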
